A study of Mus musculus with 18 samples.

Results

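The ATF4 amino acid and tRNA charging response was examined as a set of 37 genes matched by symbol in 2 tables of leukemic mouse spleens. The set held 11 transcription factors and effectors, 8 enzymes of amino acid synthesis, 7 amino acid transporters and 11 cytosolic tRNA synthetases. Of the 37 genes, 34 had values among the 18329 genes of the acute table and 36 among the 18953 genes of the survival table. After a filter requiring a mean normalized count of at least 10 over a table, 34 members were tested in each table. Atf3, Trib3 and Chac1 were not analysed here in the acute libraries and Atf3 was not analysed here in the survival libraries, while Trib3 and Chac1 had survival values under the filter.

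ATF4 is the transcription factor at the end of the integrated stress response. Kinases that sense amino acid shortage, unfolded protein, haem shortage or double-stranded RNA phosphorylate the translation factor eIF2, which lowers general protein synthesis and raises translation of the Atf4 mRNA. ATF4 then pairs with C/EBP family proteins at composite DNA elements and raises transcription of genes that make, import or charge amino acids. Because ATF4 is controlled largely at translation, its mRNA level is not a measure of its protein.

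The spleens came from C57BL/6 mice, irradiated at a sub-lethal dose, that had received Acly conditional knockout T-cell acute lymphoblastic leukemia (T-ALL) cells intravenously. Acly encodes ATP citrate lyase, which makes cytosolic acetyl-CoA from citrate. In the acute arm (4 KO and 4 WT libraries) treatment began once leukemia was overt, and spleens were taken 48 h later. In the survival arm treatment followed the transplant by 48 h and spleens were taken at the humane endpoint, giving 3 KO first-wave, 3 KO second-wave and 4 WT libraries. KO mice received intraperitoneal tamoxifen (3 mg per mouse in corn oil), the drug that commonly switches on an inducible Cre recombinase, and WT mice received corn oil alone. Both groups thus started from leukemia cells with the conditional allele, and an effect of tamoxifen cannot be told apart from loss of Acly. The labels name neither the Cre, the driver of the T-ALL nor the age of the mice, and leave the difference between the waves undefined. They do not tie each library to a mouse of its own, so the p-values rest on the spread among these samples, which may be technical, and normal spleen cells of the recipient remain in each.

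Acly itself had 793, 804, 717 and 619.6 normalized counts in the KO acute libraries, against 1422, 1129, 1231 and 1241 in the WT acute libraries (log2 -0.78, SE 0.13, limma adjusted p = 0.00266). Which exons are deleted is not given in the labels. In the survival arm Acly averaged 727 ± 71.8 (SD, n = 3) in the first wave, 576 ± 75.3 (SD, n = 3) in the second wave and 1697 ± 154 (SD, n = 4) in WT. Estimated depth was 6.07 to 12.7 M reads per library. The 10 T-lineage markers were all measured in both tables and took 0.365% to 0.594% of the counts of a library. They took 0.373% to 0.521% in the KO acute libraries against 0.556% to 0.594% in the WT acute libraries, with none at 0 in either group. KO acute replicates 1 and 2 stood apart by mitochondrially encoded counts (4.80% and 5.27%, against 2.35% and 2.70% in KO replicates 3 and 4 and 3.5% to 3.69% in WT). The T-lineage markers took 0.419% and 0.373% in KO acute replicates 1 and 2, against 0.521% and 0.485% in KO replicates 3 and 4. In the same order the 10 neutrophil markers took 0.0537% and 0.0667%, against 0.0303% and 0.0218%. The part of these cells in the acute results was not tested. In the survival table WT replicates 1 and 2 lay far out along the main principal component (78.6 and 67.2, against -18.8 and 4.16 in WT replicates 3 and 4 and -16.5 to -3.65 in 5 of the 6 KO libraries). KO second-wave replicate 1 lay far out on the other side, at -73.2. Acute calls are given with and without KO acute replicates 1 and 2. For some members survival values are also given without WT replicates 1 and 2 or second-wave replicate 1, and values of members not given so can depend on these libraries too.

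The DNA element that ATF4 and C/EBP proteins share has TGATGNAA at its core, and the promoter letters of the members were searched for it. The members are known genes of the ATF4 response, and several are textbook targets through this element, so the share that holds it is a description and is not independent of how they were chosen. RefSeq promoter windows of GRCm38.p6, running from 250 bases before to 50 bases after a gene's start, were matched by symbol for 30 of the 37 members, and both strands were searched for this motif alone. It occurred in at least 1 window of 12 of these 30 members (40%) and of 1219 of all 27025 genes with a window (4.51%). By role it was present for 5 of 7 tRNA synthetases, 2 of 5 transporters, 2 of 8 synthesis enzymes and 3 of 10 transcription factors and effectors. The members with a match were Aars, Asns, Atf3, Chac1, Gars, Iars, Pycr1, Slc1a4, Slc7a11, Tars, Trib3 and Yars. Windows of 4 members are printed in lower case with each match in capitals (a match on the opposite strand reads as its reverse complement): Slc7a11, which passed the test in the acute libraries, and Asns, Chac1 and Trib3, textbook targets which had low normalized counts where they were measured.
Slc7a11 (chr3:50443564-50443863, minus strand): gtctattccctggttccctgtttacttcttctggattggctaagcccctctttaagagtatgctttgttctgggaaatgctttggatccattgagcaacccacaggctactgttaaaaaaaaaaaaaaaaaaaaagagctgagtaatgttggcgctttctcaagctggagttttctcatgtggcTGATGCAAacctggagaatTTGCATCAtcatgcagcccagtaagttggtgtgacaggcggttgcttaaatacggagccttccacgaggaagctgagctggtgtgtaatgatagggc
Asns (chr6:7693160-7693459, minus strand): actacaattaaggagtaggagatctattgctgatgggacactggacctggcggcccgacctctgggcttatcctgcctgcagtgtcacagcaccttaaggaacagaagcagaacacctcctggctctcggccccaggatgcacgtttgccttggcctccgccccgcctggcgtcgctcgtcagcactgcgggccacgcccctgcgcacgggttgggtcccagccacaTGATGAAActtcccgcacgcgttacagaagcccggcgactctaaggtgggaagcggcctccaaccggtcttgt
Chac1 (chr2:119350992-119351291, plus strand): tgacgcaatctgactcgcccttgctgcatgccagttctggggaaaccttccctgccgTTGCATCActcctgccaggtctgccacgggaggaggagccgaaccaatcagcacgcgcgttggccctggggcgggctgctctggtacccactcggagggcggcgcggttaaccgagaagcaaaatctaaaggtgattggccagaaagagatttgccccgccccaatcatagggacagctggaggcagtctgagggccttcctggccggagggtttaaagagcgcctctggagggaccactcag
Trib3 (chr2:152344011-152344310, minus strand): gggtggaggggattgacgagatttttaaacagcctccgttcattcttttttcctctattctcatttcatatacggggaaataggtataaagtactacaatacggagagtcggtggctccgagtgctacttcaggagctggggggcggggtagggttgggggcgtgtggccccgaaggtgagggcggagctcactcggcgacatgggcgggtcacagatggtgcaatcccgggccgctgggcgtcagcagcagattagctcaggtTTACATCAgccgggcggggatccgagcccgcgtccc
The Slc7a11 window held 2 copies on opposite strands, at offsets of -66 and -47 bases from the start, and the other 3 windows held 1 copy each. Psat1 had 2 windows and neither held the motif. A match is a description of these letters and not a measured site.

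The acute comparison asks what changed 48 h after the treatment that deletes Acly in established leukemia. Of the 34 tested members 1 rose and 1 fell. Psat1, phosphoserine aminotransferase of serine synthesis, fell to 60.2% of its WT level, and Slc7a11, the light chain of the cystine and glutamate exchanger, rose to 154% of its WT level. These 2 calls were 5.88% of the members, against 12.6% of all 14184 genes tested (4.58% higher and 8.07% lower), so the share was not above the background. Lower calls were 63.8% of the calls over all genes and 52.7% after quantile normalization, under which the members still counted 1 higher and 1 lower. Lower calls were 53.0% after a smooth trend on transcript length, GC and abundance was subtracted.

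Psat1 (GRCm38 chromosome 19, 15904678 to 15947337, minus strand, GENCODE M21) had 418, 333, 557 and 627 normalized counts in KO acute replicates 1 to 4, against 917, 798, 723 and 773 in WT acute replicates 1 to 4. The groups did not overlap, and KO replicates 1 and 2 were the lowest. Its log2 fold change of KO over WT was -0.77 (SE 0.19, limma adjusted p = 0.0167). Without KO acute replicates 1 and 2 it was -0.44 (adjusted p = 0.114) and no longer passed. These libraries had the highest mitochondrially encoded and the lowest T-lineage shares of the acute libraries. With eBayes without an abundance trend in the variance the adjusted p of Psat1 was 0.0786.

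Slc7a11 (chromosome 3, 49892526 to 50443614, minus strand) had 487, 355, 588 and 565 normalized counts in the KO acute libraries, against 279, 286, 373 and 355 in the WT acute libraries. KO replicate 2 lay within the WT range and the other 3 KO libraries lay above it. On the log2 scale KO exceeded WT by 0.61 (SE 0.19, limma adjusted p = 0.0471). The call sat at the threshold. It was lost on leaving out any of 7 of the 8 libraries (adjusted p up to 0.117), all but KO replicate 2, without which it was 0.0143. It was lost too without the filter on low values (0.0504) and with eBayes without a trend (0.111). Without KO acute replicates 1 and 2 it was 0.84 (adjusted p = 0.0217).

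**Figure D1:**
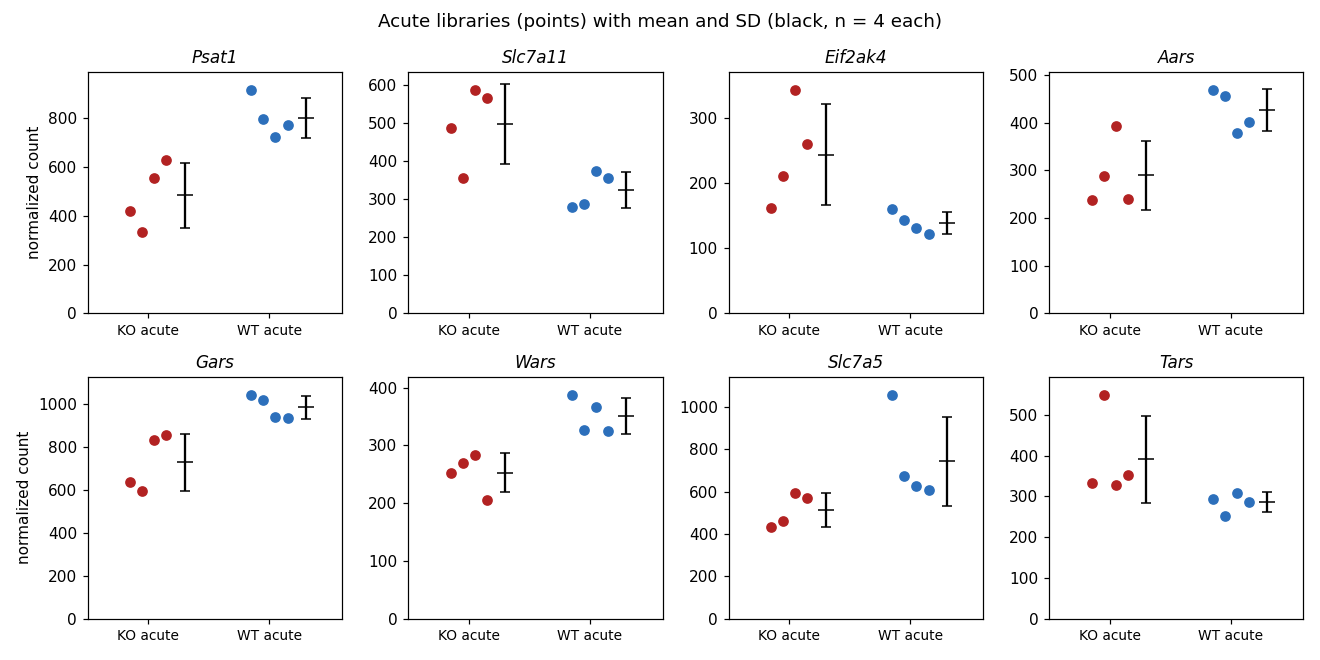
Normalized counts of 8 members in each acute library (points; KO acute left, WT acute right), with mean and SD beside them. Psat1, Gars, Wars and Slc7a5 lie lower in all 4 KO libraries than in any WT library, Eif2ak4 and Tars lie higher, and Slc7a11 and Aars overlap. The genes shown do not represent the set, where 20.6% of the 34 tested members did not overlap, against 19% of all genes.

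Among the transcription factors the acute values lay on both sides of WT. Atf4 itself had 482, 415, 539.9 and 471 normalized counts in the KO acute libraries, against 662, 457, 395 and 519 in the WT acute libraries. The groups overlapped, and the log2 fold change was -0.07 with a 95% confidence interval of -0.44 to 0.30. Ddit3, which encodes the stress factor CHOP, had 91.0, 66.0, 79.4 and 59.3 normalized counts in KO, against 95.2, 45.6, 48.2 and 43.3 in WT (log2 0.40, adjusted p = 0.446). GENCODE M21 lists 2 overlapping gene IDs under the symbol Ddit3, so its value is uncertain. Cebpg, a dimer partner of ATF4, had 950.1, 679.9, 960.1 and 861 normalized counts in KO, against 1238, 1041, 980.2 and 1059 in WT. The groups did not overlap, but the value of -0.33 missed the threshold (adjusted p = 0.138), and Cebpb, another partner, was at -0.39 with an SE of 0.45.

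The kinase gene of the amino acid arm came closest to a call among the transcription factors and effectors. Eif2ak4, which encodes GCN2, the eIF2 kinase activated by uncharged tRNA, had 162, 211, 344 and 260.1 normalized counts in the KO acute libraries, against 161, 144, 131 and 121 in the WT acute libraries. KO replicate 1 and WT replicate 1 were nearly level. The log2 value was 0.76 (SE 0.24, limma adjusted p = 0.0502). It was 1.10 (adjusted p = 0.0178) without KO replicates 1 and 2, and it passed as well with a pseudocount of 5 (0.0496) and without KO replicate 1 alone (0.0236). These were 3 of the 16 alternatives run, and Eif2ak4 missed in the rest (limma adjusted p up to 0.133). Eif4ebp1, the translation repressor 4E-BP1, was at 0.43 (adjusted p = 0.135), Ddit4, an inhibitor of mTORC1 signalling, at 0.31 (adjusted p = 0.373), and Sesn2, a leucine sensor that restrains mTORC1, at -0.26 (adjusted p = 0.666).

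The enzymes of amino acid synthesis other than Psat1 did not pass in the acute libraries, and 6 of the 8 had negative values (median -0.21 on the log2 scale). Phgdh, which opens serine synthesis from a glycolytic intermediate, had 549, 490.2, 414 and 477 normalized counts in KO, against 717, 541, 664 and 616 in WT (log2 -0.39, adjusted p = 0.0930). Only KO replicate 1 reached the WT range. Mthfd2, a mitochondrial folate enzyme, was at -0.49 (adjusted p = 0.178), Psph, which completes serine synthesis, at -0.12 and Shmt2, mitochondrial serine hydroxymethyltransferase, at 0.05. Asns, asparagine synthetase, had 49.9, 106, 17.4 and 25.4 normalized counts in KO, against 29.3, 29.2, 63.9 and 51.7 in WT, with a 95% interval of the log2 fold change from -1.17 to 1.05. Its highest and its lowest library were both KO. The proline enzymes Aldh18a1 and Pycr1 were at -0.31 and 0.23.

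Amino acid transporters gave 3 positive and 4 negative acute values. Slc7a5, the light chain of the leucine transporter LAT1, had 434, 458, 592 and 568 normalized counts in the KO acute libraries, against 1056, 675, 629 and 609 in the WT acute libraries. The groups did not overlap, WT replicate 1 was far above the rest, and the value of -0.51 missed the threshold (SE 0.19, adjusted p = 0.0905). It passed in 1 of the 16 alternatives run, after a smooth trend on transcript length, GC and abundance was subtracted (-0.68, adjusted p = 0.0343). Without KO acute replicates 1 and 2 it was at -0.32, and its limma adjusted p was up to 0.408 over the alternatives. Slc3a2, the shared heavy chain of LAT1 and of the cystine exchanger, was at -0.35 (adjusted p = 0.229), Slc38a2, a neutral amino acid transporter of the SNAT family, at -0.27 (adjusted p = 0.105), and Slc1a5, a glutamine transporter, at 0.38 (adjusted p = 0.203). Slc7a1, a transporter of arginine and lysine, was at 0.02. Slc1a4 had 0 to 15.6 normalized counts in KO and 2.28 to 17.4 in WT, too low to read.

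Of the 11 tRNA synthetases, which attach amino acids to their tRNAs, 0 passed the threshold in the acute libraries, against 12.6% of all genes, and 4 had unadjusted p under 0.05 (36.4%), against 28.1% of all genes. Aars, the alanine enzyme, had 239, 287, 392 and 240.3 normalized counts in KO, against 469, 457, 378 and 401 in WT (log2 -0.58, adjusted p = 0.0535). Only KO replicate 3 reached the WT range, and the value passed without it (-0.74, adjusted p = 0.0179) and after the length, GC and abundance trend was subtracted (-0.67, adjusted p = 0.0350). Aars passed in only these 2 of the 16 alternatives run (limma adjusted p up to 0.23). Without KO acute replicates 1 and 2 Aars was at -0.47. Gars, the glycine enzyme, had 635, 592, 830 and 854 normalized counts in KO, against 1042, 1018, 941 and 936 in WT, with no overlap (log2 -0.45, adjusted p = 0.0545). Gars passed without KO replicate 3 (-0.52, adjusted p = 0.0463) or KO replicate 4 (-0.53, adjusted p = 0.0353). These were 2 of the 16 alternatives run for Gars (limma adjusted p up to 0.356). Without KO acute replicates 1 and 2 Gars was at -0.22, its weakest value. Wars, the tryptophan enzyme, which interferon also induces, had 253, 270.2, 283 and 206 normalized counts in KO, against 387, 327, 366 and 324 in WT, again with no overlap (log2 -0.48, adjusted p = 0.0747). Wars passed in 1 of the 16 alternatives run, after the length, GC and abundance trend was subtracted (-0.58, limma adjusted p = 0.0359). Tars, the threonine enzyme, stood on the other side, with 333, 549, 328 and 353 normalized counts in KO against 294, 252, 309.5 and 287 in WT (log2 0.42, adjusted p = 0.161). The other 7 ranged from -0.30 for Nars to 0.38 for Yars, so the synthetases did not share 1 direction.

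Over the whole set, 13 acute values were positive and 21 negative, with a median log2 fold change of -0.11, against 0.03 over all genes tested and 52.4% positive. The groups did not overlap for 7 members (5 lower and 2 higher, 20.6%), against 19% of all genes (11% lower, 8.04% higher). Unadjusted p was under 0.05 for 13 members (9 lower, 4 higher), against 28.1% of all genes (15.6% lower, 12.5% higher). The median without KO acute replicates 1 and 2 was -0.22. Among the 9 tested members with the motif in their window 5 values were positive (median 0.06), and among the 18 with a window and no match 6 were positive (median -0.19). The 10 neutrophil markers moved beside these values. They took 0.0218% to 0.0667% of the counts in KO acute libraries against 0.0104% to 0.0224% in WT, with none at 0 in any of the 8 libraries. Erythroid markers took 0.026% to 0.13% in KO against 0.0646% to 0.128% in WT, and macrophage markers 0.00704% to 0.0114% against 0.00662% to 0.00999%. Plasma cell markers (5 of 7 measured) took 0.0161% to 0.0183% against 0.0163% to 0.0203%. Erythroid, macrophage and plasma cell ranges overlapped between the groups. The lower T-lineage share given above moved with the KO group. The part of any of these cells in the member values was not tested. In such bulk samples fewer cells of a type and less RNA per cell cannot be told apart.

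**Figure D2:**
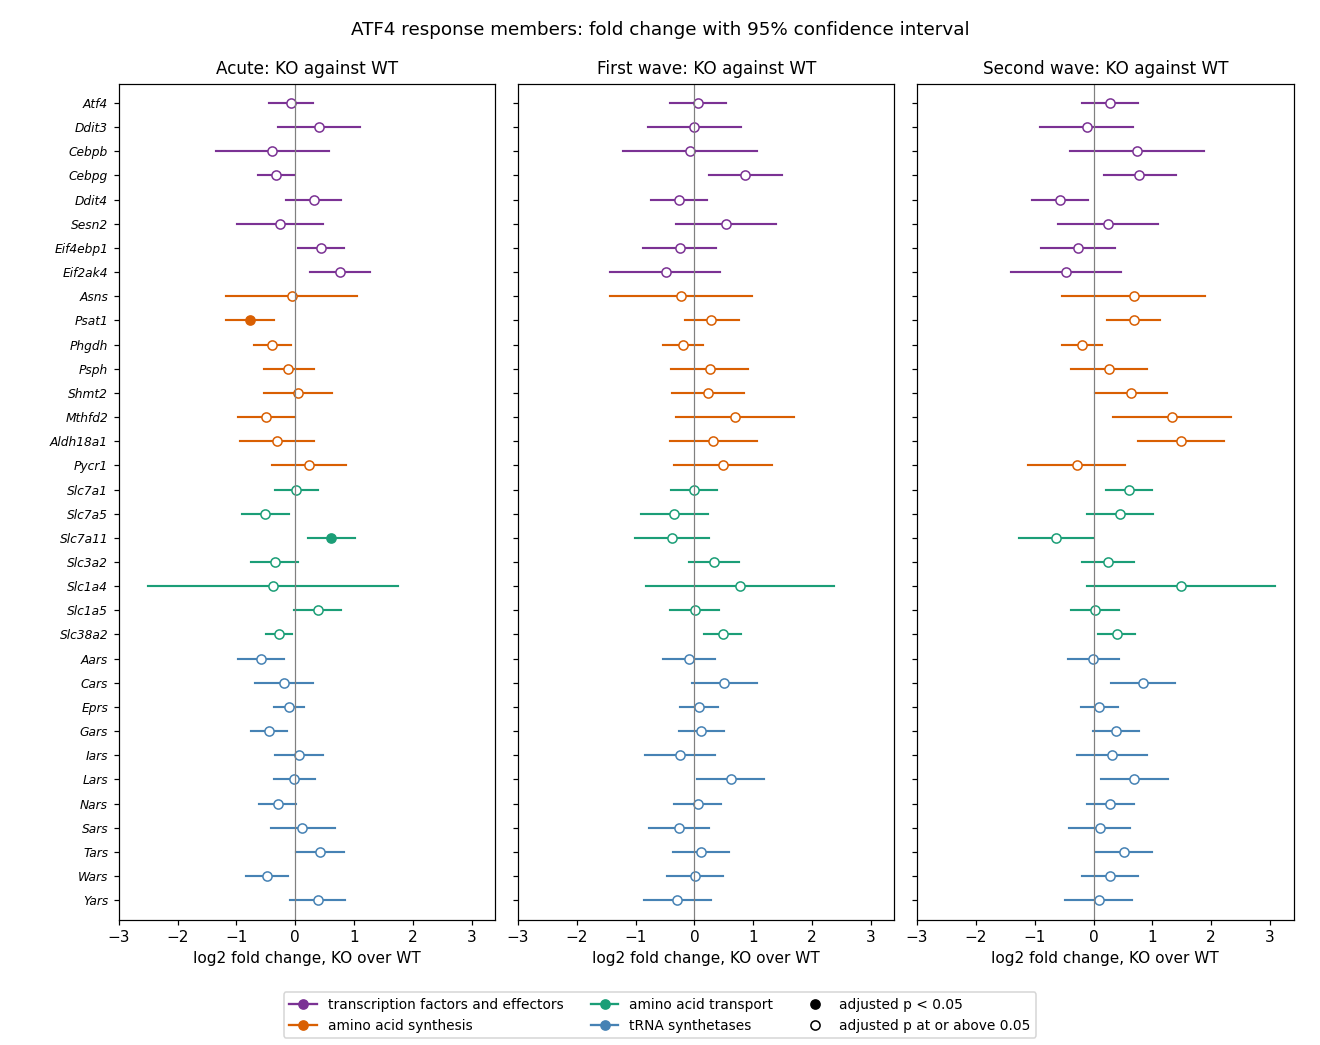
Log2 fold change of KO over WT with its 95% confidence interval for the 34 tested members, coloured by role, in the acute, first-wave and second-wave comparisons. Filled points, Psat1 at -0.77 and Slc7a11 at 0.61 in the acute panel, have an adjusted p under 0.05; the 34 points of each wave are open, and 26 of them lie above 0 in the second wave.

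Genes that feed this response were listed apart from the members. Of 17 measured regulators of the integrated stress response 4 fell and 2 rose (35.3%, median -0.13), against 12.6% of all genes (8.07% lower, 4.58% higher). Eif2b2, a subunit of the exchange factor eIF2B that phosphorylated eIF2 inhibits, fell to 66.7 ± 19.8 normalized counts in KO, against 201 ± 51.8 in WT (SD, n = 4 each; log2 -1.59, SE 0.28, limma adjusted p = 0.00343). Eif2s3x and Eif2s2, subunits of eIF2 itself, were at -0.47 (adjusted p = 0.00889) and -0.52 (adjusted p = 0.0209), and Ppp1r15b, a phosphatase subunit that reverses eIF2 phosphorylation, fell at -0.38 (adjusted p = 0.0165). Gcn1l1, which encodes the GCN2 activator GCN1, rose to 2045 ± 385 normalized counts in KO, against 1194 ± 117 in WT (SD, n = 4 each; log2 0.76, SE 0.14, adjusted p = 0.00488). Eif2ak2, the double-stranded RNA kinase PKR, rose to 765 ± 43.3 in KO, against 533 ± 78.2 in WT (log2 0.53, adjusted p = 0.0237). Without KO acute replicates 1 and 2 the calls of Eif2b2 (-1.22, limma adjusted p = 0.0254), Eif2s3x (0.0431) and Gcn1l1 (0.00472) remained, and they passed too with each of the 8 libraries left out in turn. Eif2s2 (0.0735), Ppp1r15b (0.0526) and Eif2ak2 (0.0788) no longer passed without those 2 libraries, and each also missed in at least 1 of the 8 single leave-outs. Their log2 values without those 2 libraries were -0.48, -0.36 and 0.54, close to those with all libraries. That fit keeps only KO replicates 3 and 4, so a lost call need not mean a smaller change.

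Other cytosolic synthetases and their scaffold proteins, which are not members, gave 4 lower and 0 higher of 12 (33.3%, median -0.30). Over all genes 12.6% were called, 4.58% higher and 8.07% lower. Without KO acute replicates 1 and 2 the lower calls were 2 of 12, Dars (limma adjusted p = 0.0394) and Eef1e1 (0.0499), while Farsb (0.0670) and Qars (0.0561) missed the threshold. The log2 values in that fit were -0.46 for Dars, -0.66 for Eef1e1, -0.46 for Farsb and -0.53 for Qars. All 4 passed with each of the 8 libraries left out in turn. Dars, the aspartate enzyme, averaged 1313 ± 111 normalized counts in KO and 1949 ± 159 in WT (SD, n = 4 each; log2 -0.57, limma adjusted p = 0.00602). Farsb, a subunit of the phenylalanine enzyme, was at -0.63 (adjusted p = 0.0104), Qars, the glutamine enzyme, at -0.58 (adjusted p = 0.0108), and Eef1e1, which encodes the scaffold protein AIMP3, at -0.76 (adjusted p = 0.0118). Of 20 mitochondrial tRNA charging genes 1 rose and 2 fell (15%): Sars2, the serine enzyme, rose to 104 ± 8.31 in KO, against 54.5 ± 13.8 in WT (log2 0.94, adjusted p = 0.0335), and Gatc, of the glutamine amidotransferase, and Mars2, the methionine enzyme, fell at -0.67 (adjusted p = 0.0289) and -0.43 (adjusted p = 0.0472). None of these 3 calls held without KO acute replicates 1 and 2 (limma adjusted p = 0.107 for Sars2, 0.113 for Gatc and 0.152 for Mars2), and each was lost in at least 5 of the 8 single leave-outs. Their log2 values without those 2 libraries were 0.99 for Sars2, -0.62 for Gatc and -0.4 for Mars2, close to those with all libraries.

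Of 14 tested genes from a list of other reported ATF4 targets 1 rose (7.14%) and of 12 other amino acid transporters 1 rose (8.33%). Pck2, mitochondrial phosphoenolpyruvate carboxykinase, averaged 391 ± 81.7 normalized counts in KO and 207 ± 68.4 in WT (SD, n = 4 each; log2 0.96, limma adjusted p = 0.0256). Slc6a6, the taurine transporter, averaged 912 ± 88.0 in KO and 618 ± 109 in WT (log2 0.57, adjusted p = 0.0218). Neither passed without KO acute replicates 1 and 2 (limma adjusted p = 0.181 for Pck2 and 0.141 for Slc6a6), and with 1 library left out Pck2 passed in 4 and Slc6a6 in 3 of the 8 fits. Pck2 was at 0.74 and Slc6a6 at 0.47 without KO acute replicates 1 and 2. Without those 2 libraries Slc16a10, an aromatic amino acid transporter, passed instead (-0.60, limma adjusted p = 0.0273; -0.37 and 0.137 with all libraries). Over the 5 lists 5 of the 15 calls thus remained without these libraries and 1 was added, and over all genes 903 calls were made, against 1794 with all libraries. The shares of these 5 lists are set against 12.6% of all genes, and the lists are described and not tested as sets.

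**Figure D3:**
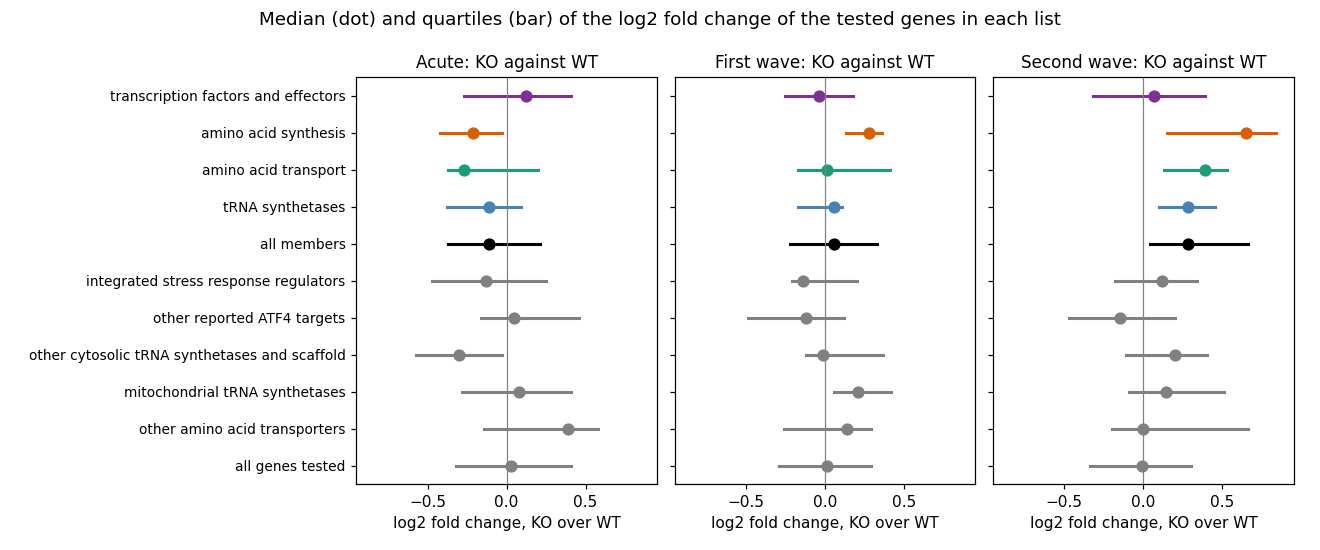
Median (dot) and quartiles (bar) of the log2 fold change of KO over WT for the members by role, all 34 tested members, 5 other pathway lists and all genes tested. The member median is -0.11 in the acute libraries, 0.06 in the first wave and 0.28 in the second wave, and that of the synthesis enzymes is -0.21, 0.28 and 0.65.

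The first-wave comparison sets first-wave KO leukemias at the humane endpoint against WT endpoint leukemias. Of the 34 tested members 0 passed limma's threshold, as did 0% of the 14286 genes tested, and 3 members had unadjusted p under 0.05 (all higher), against 8.02% of all genes (4.42% higher, 3.6% lower). The smallest limma adjusted p over all genes was 0.0562, so Acly, the targeted gene, was not called here either. The median was 0.06, against 0.01 over all genes, and 21 values were positive (61.8%), against 50.6% of all genes. KO and WT did not overlap for 2 members, both higher, against 8% of all genes (4.4% higher, 3.6% lower). Cebpg had 1131, 1221 and 1159.9 normalized counts in the first wave, against 416, 431, 969.8 and 985 in WT survival (log2 0.86, SE 0.29, adjusted p = 0.617). WT replicates 1 and 2, which stood apart over all genes, were well below the other 2 WT libraries. Without them the first-wave value of Cebpg was 0.26.

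Slc38a2 was the other member without overlap in the first wave. It had 5067, 4806 and 4738 normalized counts in the first wave, against 3549, 3142, 4072 and 3271 in WT (log2 0.48, SE 0.15, adjusted p = 0.617), and 0.42 without WT replicates 1 and 2. Lars, the leucine enzyme, had 537, 723 and 704 normalized counts in the first wave, against 275, 384, 577 and 527 in WT (log2 0.62, adjusted p = 0.617), and was at 0.23 without these 2 libraries. Without them the first-wave value of Mthfd2 went from 0.69 to -0.23 and that of Ddit3 from 0 to -0.48. Atf4 had 739, 509 and 749 normalized counts in the first wave, against 721, 609.6, 787 and 450.4 in WT, with a 95% interval of -0.41 to 0.54. Values of all 34 members ranged from -0.49 for Eif2ak4 to 0.86 for Cebpg. Without WT replicates 1 and 2 Eif2ak4 was at 0.22, so its sign changed. The neutrophil markers took 0.00236% to 0.00442% of the counts in the first wave against 0.00241% to 0.0168% in WT, and the T-lineage markers took 0.524% to 0.584% in the first wave against 0.365% to 0.581% in WT. The high neutrophil values (0.0168% and 0.0107%) and the low T-lineage values (0.365% and 0.39%) were those of WT replicates 1 and 2. The part of these cells in the first-wave values was not tested. Each list was measured with 10 of 10 markers, with Cd7 (T-lineage) and Elane (neutrophil) listed at 0 in at least 1 library of both groups and S100a9 in at least 1 first-wave library.

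The second-wave comparison sets second-wave KO leukemias against the same WT libraries, so it shares its controls with the first. Of the 34 tested members 0 passed limma's threshold, against 0.224% of all genes (0.049% higher, 0.175% lower), and 12 had unadjusted p under 0.05 (10 higher, 2 lower), against 13% of all genes (6.59% higher, 6.4% lower). Positive values were 26 of 34 (76.5%), against 49.1% of all genes, and the median was 0.28, against -0.01 over all genes. The groups did not overlap for 8 members, all higher in the second wave, against 5.04% of all genes higher, 4.62% lower and 9.66% in either direction without overlap. Without second-wave replicate 1 the members still had 0 calls, 25 positive values and a median of 0.27. The T-lineage markers took 0.476% to 0.519% of the counts in the second wave against 0.365% to 0.581% in WT, and the neutrophil markers 0.003% to 0.00347% against 0.00241% to 0.0168%, with 10 of 10 measured in each list. WT replicates 1 and 2 had the lowest T-lineage (0.365% and 0.39%) and the highest neutrophil shares (0.0168% and 0.0107%) of the survival libraries. In WT replicates 3 and 4 the T-lineage markers took 0.581% and 0.531% and the neutrophil markers 0.00241% and 0.0033%. Cd7 was at 0 in at least 1 library of both groups, S100a9 in at least 1 second-wave library and Elane in at least 1 WT library, and the part of these cells in the result was not tested. Erythroid (0.0418% to 0.302% against 0.0503% to 0.221%), macrophage (0.00673% to 0.0235% against 0.00599% to 0.0152%) and plasma cell markers (0.0137% to 0.0143% against 0.0131% to 0.0206%) overlapped between the second wave and WT. Second-wave replicate 1 had the highest erythroid (0.302%) and macrophage (0.0235%) shares of the survival libraries. Replicates 2 and 3 were at 0.0418% and 0.15% for erythroid and 0.00673% and 0.0116% for macrophage markers. Among the 8 members without overlap the largest value was that of Aldh18a1, which makes the shared precursor of proline and ornithine.

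Aldh18a1 had 499, 538 and 448 normalized counts in the second wave, against 208, 125, 289 and 127 in WT (log2 1.48, SE 0.34, limma adjusted p = 0.111). It passed only without WT survival replicate 3 (1.72, adjusted p = 0.0362), and was at 1.36 without WT replicates 1 and 2. Mthfd2 had 504, 734 and 472 normalized counts in the second wave, against 154, 88.6, 459 and 386 in WT (log2 1.33, SE 0.47, adjusted p = 0.260). The 2 lowest WT values were replicates 1 and 2, and without them Mthfd2 was at 0.41. Psat1 had 2088, 1529 and 1269.8 normalized counts in the second wave, against 848, 901, 1335 and 971 in WT (log2 0.68, adjusted p = 0.221), so its sign was opposite to that of the acute value and its groups overlapped. The difference between the arms was not tested. Without second-wave replicate 1, its highest library, Psat1 was at 0.48. Shmt2 had 862, 435 and 397 normalized counts in the second wave, against 333, 282, 512 and 285 in WT (log2 0.63, adjusted p = 0.370). Replicate 1 was the high library again, and without it Shmt2 was at 0.28. Asns had 225, 85.4 and 76.7 normalized counts in the second wave, against 82.9, 38.9, 141 and 54.2 in WT (log2 0.68, 95% interval -0.53 to 1.89), and was at 0.20 without replicate 1. Phgdh was at -0.20.

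Among the transporters of the second wave, Slc7a1 had 1383, 1384 and 1480 normalized counts, against 998, 869, 1096 and 789.6 in WT (log2 0.60, SE 0.18, limma adjusted p = 0.202). It was at 0.60 as well without WT replicates 1 and 2. Slc38a2 had 4334, 4169 and 5274 normalized counts in the second wave (log2 0.39, adjusted p = 0.277), again above every WT library. Slc7a11, higher in the acute KO libraries, had 408, 671 and 442 normalized counts in the second wave, against 860, 1201, 451 and 751 in WT (log2 -0.64, adjusted p = 0.380; -0.24 without WT replicates 1 and 2). Slc7a5 was at 0.45 (adjusted p = 0.493). Slc1a4, a neutral amino acid transporter, had 7.57, 30.4 and 29.1 normalized counts in the second wave, against 3.94, 4.94, 9.86 and 7.25 in WT (log2 1.49, SE 0.75, adjusted p = 0.420), with second-wave replicate 1 inside the WT range and a value of 2.10 without it.

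Of the synthetases in the second wave 10 of 11 values were positive (median 0.28) and 0 passed. Cars, the cysteine enzyme, had 279.7, 277 and 270.1 normalized counts, against 111, 179.9, 179 and 157 in WT, with the second-wave libraries close together and all above WT (log2 0.84, SE 0.26, limma adjusted p = 0.208; 0.71 without WT replicates 1 and 2). Lars had 581, 917 and 597 normalized counts in the second wave (log2 0.69, adjusted p = 0.299; 0.31 without them), and Tars had 622, 459 and 449.8, against 431, 346, 303 and 343 in WT (log2 0.51, adjusted p = 0.347; 0.36 without second-wave replicate 1). The other synthetases that this library moved most were Iars and Yars, at 0.57 and 0.32 without it, against 0.31 and 0.09 with it, and 10 of the 11 values stayed positive. Among the other 8, values ranged from -0.01 for Aars to 0.38 for Gars.

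Transcription factors and effectors of the second wave were spread around WT, with 4 of 8 positive. Cebpg had 1161, 1119.5 and 1044 normalized counts in the second wave (log2 0.78, SE 0.29, limma adjusted p = 0.269) and was at 0.18 without WT replicates 1 and 2. Atf4 had 756, 706 and 826 normalized counts (log2 0.28, 95% interval -0.20 to 0.75), Ddit4 was at -0.57 (adjusted p = 0.303) and Ddit3 at -0.12. Without WT replicates 1 and 2 Ddit3 was at -0.6. Eif2ak4 was at -0.47, and at 0.25 without these WT libraries, so its sign changed. Trib3, a pseudokinase induced by ATF4 and CHOP, had 4.90, 0 and 3.84 normalized counts in the first wave, 0 in each second-wave library, and 0, 0, 7.39 and 1.45 in WT. Chac1, which degrades glutathione, was listed at 0 in each first-wave library, had 0, 10.5 and 0 in the second wave, and 0, 0, 4.11 and 0 in WT. Both were too low to compare.

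**Figure D4:**
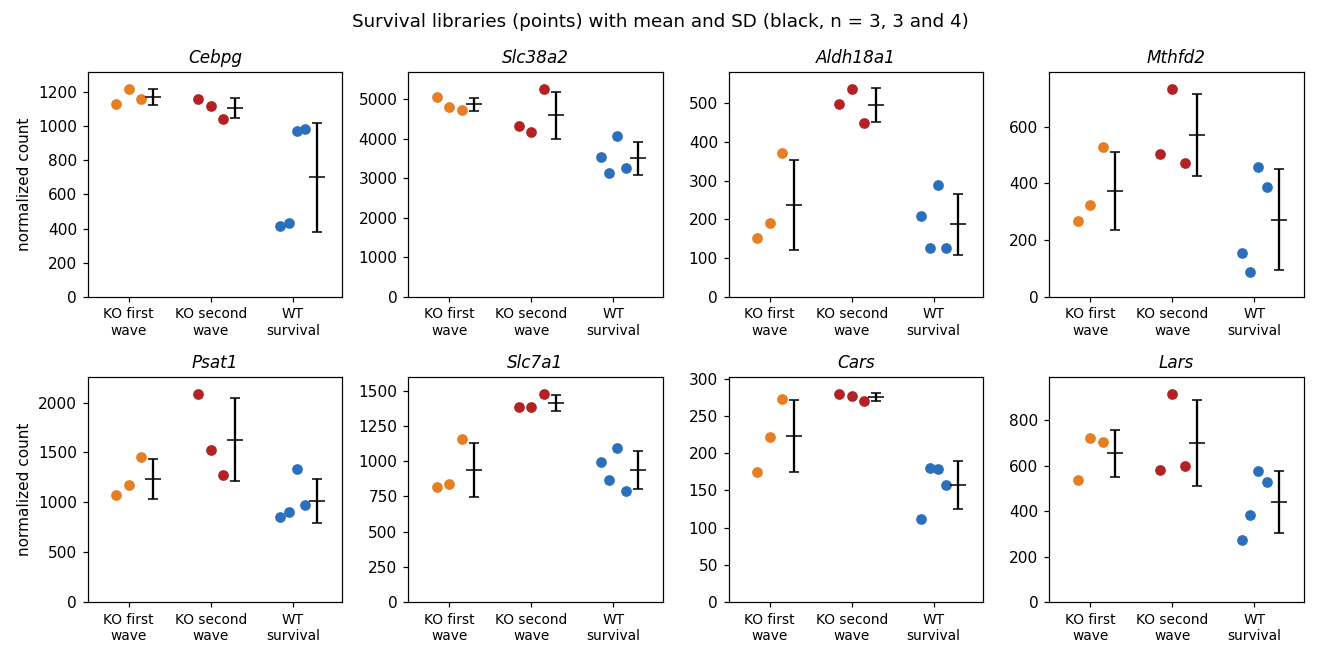
Normalized counts of 8 members in each survival library (points; KO first wave, KO second wave and WT from left to right), with mean and SD beside them. Second-wave libraries lie above every WT library for each gene except Psat1, and WT splits into 2 low and 2 high libraries for Cebpg and Mthfd2. The genes shown do not represent the set: this held for 8 of the 34 tested members, against 5.04% of all genes.

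Library by library, the median over the 34 tested members, as a log2 difference from the WT mean of each gene, was 0.32, 0.26 and 0.27 in the second wave, 0.08, 0.09 and 0.26 in the first wave and 0.09, -0.14, 0.22 and -0.11 in WT survival. First-wave replicate 3 and WT replicate 3 were thus close to the second wave. In the acute libraries it was -0.05, 0.09, -0.14 and -0.20 in KO, against 0.18, -0.07, -0.07 and -0.03 in WT. With WT replicates 1 and 2 left out the member median of the second wave was 0.30.

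Second against first wave, a comparison of the KO leukemias with each other, gave 0 calls among the members, against 0.119% of all genes (0.014% higher, 0.105% lower). Of the members 3 had unadjusted p under 0.05, all higher in the second wave, against 6.34% of all genes (2.58% higher, 3.76% lower). Aldh18a1 had 499, 538 and 448 normalized counts in the second wave, against 152, 189.6 and 370 in the first (log2 1.16, SE 0.37, limma adjusted p = 0.501). Slc7a1 had 1383, 1384 and 1480 in the second wave, against 818, 836 and 1161 in the first (log2 0.61, SE 0.19, adjusted p = 0.504), and Slc7a5 had 1635, 1324 and 1706 in the second wave, against 817, 743 and 1192 in the first (log2 0.78, SE 0.28, adjusted p = 0.625). The waves did not overlap for these 3 members or for Pycr1, the last enzyme of proline synthesis, with 31.2, 67.4 and 56.3 in the second wave, against 86.2, 91.3 and 75.9 in the first. These were 11.8% of the members, against 13.6% of all genes (6.3% higher, 7.29% lower). Positive values were 24 of 34, against 48.9% of all genes. All 11 synthetases had positive values (median 0.27, range 0.02 to 0.56), and the highest, Iars, the isoleucine enzyme, had an adjusted p of 0.859. Without second-wave replicate 1 the values were 1.15 for Aldh18a1, 0.63 for Slc7a1, 0.74 for Slc7a5, -0.44 for Pycr1 (-0.76 with it) and 0.81 for Iars, with 23 of 34 member values and all 11 synthetase values positive.

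The other pathway lists had 0 calls in each wave. In the second wave the smallest adjusted p among them was 0.118, for Slc38a9, the lysosomal arginine sensor of mTORC1, which averaged 2567 ± 508 normalized counts in the second wave (SD, n = 3) and 4199.7 ± 496 in WT (SD, n = 4; log2 -0.72). Slc43a1, a large neutral amino acid transporter, averaged 513 ± 242 in the second wave and 1131 ± 219.8 in WT (log2 -1.26, limma adjusted p = 0.124). Both were picked by their values. Both waves as 1 group against WT gave 0 member calls, against 0.021% of all genes. Unadjusted p was under 0.05 for 8 members (7 higher, 1 lower), against 12.9% of all genes (7.09% higher, 5.77% lower), and the smallest adjusted p among members was 0.270, for Slc38a2 at 0.43.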

How the data were processed

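RNA was sequenced from spleen cell suspensions after red cell lysis, with strand-specific libraries of total RNA, per the labels' protocols. The authors deposited 2 tables of normalized counts in the unit signal: the file names call them DESeq-normalized counts, and kallisto 0.44.0, DESeq and GRCm38 are listed, with no roles, per the submitters' processing notes. Annotation, gene filter and strand setting are not given in the sources read. Each table was normalized on its own, so tests were made within a table. The value worth 1 read, taken as the most frequent value under 3, gave the estimated depths; 34.5% to 63.4% of values under 8 were whole multiples of it within 0.02, so whole reads were not recovered.

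Values were set to log2(value + 1), which understates changes of low genes. Genes with a mean of at least 10 were fitted with limma 3.58.1 in R 4.3.3 (lmFit, eBayes with trend), the acute fit on 8 libraries and the survival fit on all 10, and p-values were Benjamini-Hochberg adjusted over all genes tested (threshold 0.05). Alternatives are given in the closing section. Of the other pathway lists, the genes past the threshold are named, at most 3 with the smallest adjusted p in each direction, with Eef1e1 and Eif2s2, the last calls of 2 lists, and Slc38a9 and Slc43a1 added after their values were seen. The members and lists were chosen with earlier results of these data known. GENCODE M21 symbols gave positions, and RefSeq gave promoters. The result of 1 other marker list is not reported here.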

Additional observations from a re-analysis of the deposited data

Results flagged for a closer look

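Of 107 groups of 4 libraries checked for a single library far from the rest, 5 were noted, and chance gives about 1 in 20. Tars in KO acute replicate 2 was at 549 normalized counts, against 328 to 353 in the other KO acute libraries. Ddit3 in WT acute replicate 1 was at 95.2, against 43.3 to 48.2 in the other WT acute libraries. Aldh18a1 in WT acute replicate 2 was at 406, against 158 to 200.3, and Slc7a5 in WT acute replicate 1 was at 1056, against 609 to 675. Chac1 in WT survival replicate 3 was at 4.11, with the other 3 WT survival libraries listed at 0.

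Cebpg lay on opposite sides of WT in the 2 tables: every KO acute library was below every WT acute library (log2 fold change -0.33), and every first-wave and second-wave library was above every WT survival library (0.86 and 0.78). Without WT survival replicates 1 and 2, the lowest libraries, these wave values were 0.26 and 0.18. The acute value minus the wave value was -1.19 for the first wave and -1.11 for the second. The tables were normalized separately, so this difference was not tested, and none of the 3 values passed limma's threshold on its own (adjusted p = 0.138, 0.617 and 0.269).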

How the results depend on the processing

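The acute count of 2 members past the threshold became 1 without the filter on low values, 0 with eBayes without a trend and 5 once the length, GC and abundance trend was subtracted (Slc7a5, Aars and Wars were added, all lower). With a pseudocount of 5 it was 3 (Eif2ak4 added). Over all genes the calls were 1355 with the trend subtracted and 1849 with a pseudocount of 5, against 1794 of 14184 in the main fit. Without the filter on low values they were 1667. The member count ranged from 1 to 3 when each of the 8 libraries was left out in turn. With a pseudocount of 0.5, after quantile normalization and with the replicate block it was 2, and it was 2 without KO acute replicates 1 and 2, chosen after seeing the data, where Eif2ak4 took the place of Psat1. The second-wave count of 0 became 1 without WT survival replicate 3 and ranged from 0 to 1 over the 10 libraries left out in turn. In the other 3 survival comparisons it was 0 under every alternative run. The cause of these changes was not tested.

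The replicate block left 2 acute calls and 0 survival calls. After the group mean of each gene was subtracted, same-numbered libraries of different groups correlated at -0.0295 to 0.0946. The numbers were thus not taken to pair the libraries. Over all genes, 1794 acute calls became 693 with eBayes without a trend, 903 without KO acute replicates 1 and 2, and between 983 and 1634 when 1 library was left out, the lowest without WT acute replicate 4. Lower calls made up 53.0% with the trend removed and 74.3% without those 2 KO libraries. The 32 second-wave calls became 14 with eBayes without a trend or without WT survival replicates 1 and 2, 23 without second-wave replicate 1, and ranged from 15 to 140 with 1 library left out, the highest without WT survival replicate 3. The 17 calls between the waves became 1 with eBayes without a trend, 2 with the block, 34 without WT survival replicates 1 and 2, and 1 to 38 with 1 library left out. The member median ranged from -0.22 to -0.06 in the acute, -0.01 to 0.15 in the first-wave and 0.25 to 0.38 in the second-wave comparison. Depth of 6.07 to 12.7 M reads limits members of low level such as Asns, Slc1a4, Trib3 and Chac1.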
